A study of Mus musculus with 12 samples.

Results

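Epithelial-mesenchymal transition (EMT) genes were described in bulk RNA from 12 mouse pancreatic tumours, 6 grown in Alb-Cre+/+;Stat3f/f hosts and 6 in wild-type (WT) hosts. The members were 10 of the 24956 gene symbols in the deposited count table, chosen by name as EMT transcription factors (Zeb1, Zeb2, Snai1, Snai2, Twist1), cadherins (Cdh1, Cdh2) and commonly used markers of either state (Vim, Epcam, Tgfbi). All 10 passed the filter on low counts that left 12856 genes for testing. Every tumour, in either host, came from PDA.69, a line derived from pancreatic ductal adenocarcinoma (PDAC) of KPC mice and labelled as low in T cells. The tumours of both groups therefore share the source of their carcinoma cells and stand for a single line. In Alb-Cre+/+;Stat3f/f hosts the albumin promoter, active in hepatocytes, drives Cre, and the floxed Stat3 alleles are removed in those cells. Stat3 encodes a transcription factor activated by interleukin 6 family cytokines. The labels give no host age or sex, no site of implantation and no pooling of animals, and WT hosts are given no further allele.

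EMT is a change of cell state in which epithelial cells give up E-cadherin junctions and take on a motile, vimentin-rich form. Zeb, Snail and Twist family proteins bind E-box motifs, and the Zeb and Snail proteins repress Cdh1 and other epithelial genes through the form CACCTG. Transforming growth factor beta is a classical inducer, and pancreatic carcinoma is known for cells that hold epithelial and mesenchymal features side by side. Fibroblasts, macrophages and endothelial cells also express Vim, and stromal cells Zeb2 and Tgfbi, so bulk RNA sums over cell types, and fewer cells of a type and less RNA per cell cannot be told apart.

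Library totals ran from 6083638 to 8085609 counts in Alb-Cre+/+;Stat3f/f tumours and from 5691707 to 7594880 counts in WT tumours. The libraries read the 3′ ends of transcripts, so a count does not scale with transcript length, and levels of different genes were compared as CPM, the counts scaled to a common library size by TMM, which corrects for composition. Genes of pancreatic acinar cells, which make digestive enzymes, were unevenly present, and 15 of them held 0.612 to 33.7% of counts in Alb-Cre+/+;Stat3f/f tumours and 0.472 to 17.4% in WT tumours. The share was over 15% in 4 Alb-Cre+/+;Stat3f/f tumours (numbers 1 to 4) and in 1 WT tumour (number 5), called acinar-rich here. Fits without the acinar-rich tumours keep only Alb-Cre+/+;Stat3f/f tumours 5 and 6 against WT tumours 1 to 4 and 6. Stat3 itself averaged 258 ± 34.0 CPM in Alb-Cre+/+;Stat3f/f tumours and 257 ± 15.5 CPM in WT tumours (SD, n = 6 each), which does not check the labels, since the deletion is in host hepatocytes. Markers of ductal carcinoma were detected throughout (10 of 10 tested), with a summed level of 2161 to 2651 CPM in Alb-Cre+/+;Stat3f/f tumours and 2918 to 3337 CPM in WT tumours. Of those markers, 9 had a negative fold change and 2 fell (Krt7 and Sox9). Macrophage markers summed to 1859 to 2806 CPM in Alb-Cre+/+;Stat3f/f tumours and 1323 to 1917 CPM in WT tumours, and 8 of 14 rose. T cell markers were low, at 52.7 to 106 CPM in Alb-Cre+/+;Stat3f/f tumours and 16.5 to 51.3 CPM in WT tumours, with all 6 Alb-Cre+/+;Stat3f/f sums above every WT sum. Of 10 T cell markers 10 were positive, 1 was called higher by edgeR (Cd247) and 5 by DESeq2, and 7 had an unadjusted p under 0.05. Of 4 tested Schwann cell markers 0 passed by edgeR or DESeq2, with 2 at an unadjusted p under 0.05.

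Among the 10 members, Tgfbi rose in Alb-Cre+/+;Stat3f/f tumours and no member fell (edgeR's quasi-likelihood test, Benjamini-Hochberg adjusted p under 0.05 over all 12856 genes). The share of all tested genes called was 2.98% in either direction, 2.23% higher and 0.747% lower. At an unadjusted p under 0.05 there were 3 members, Tgfbi higher and Cdh1 and Zeb1 lower, against 19.4% of all genes (11.5% higher and 7.83% lower). DESeq2 called 2 members, Tgfbi higher and Cdh1 lower, against 7.33% of the genes to which it gave an adjusted p. No member had groups that did not overlap, which 2.01% of all genes had (1.37% higher and 0.646% lower). The mesenchymal markers Vim and Cdh2 and the factors Zeb2, Snai1, Snai2 and Twist1 did not pass the threshold.

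**Figure D1:**
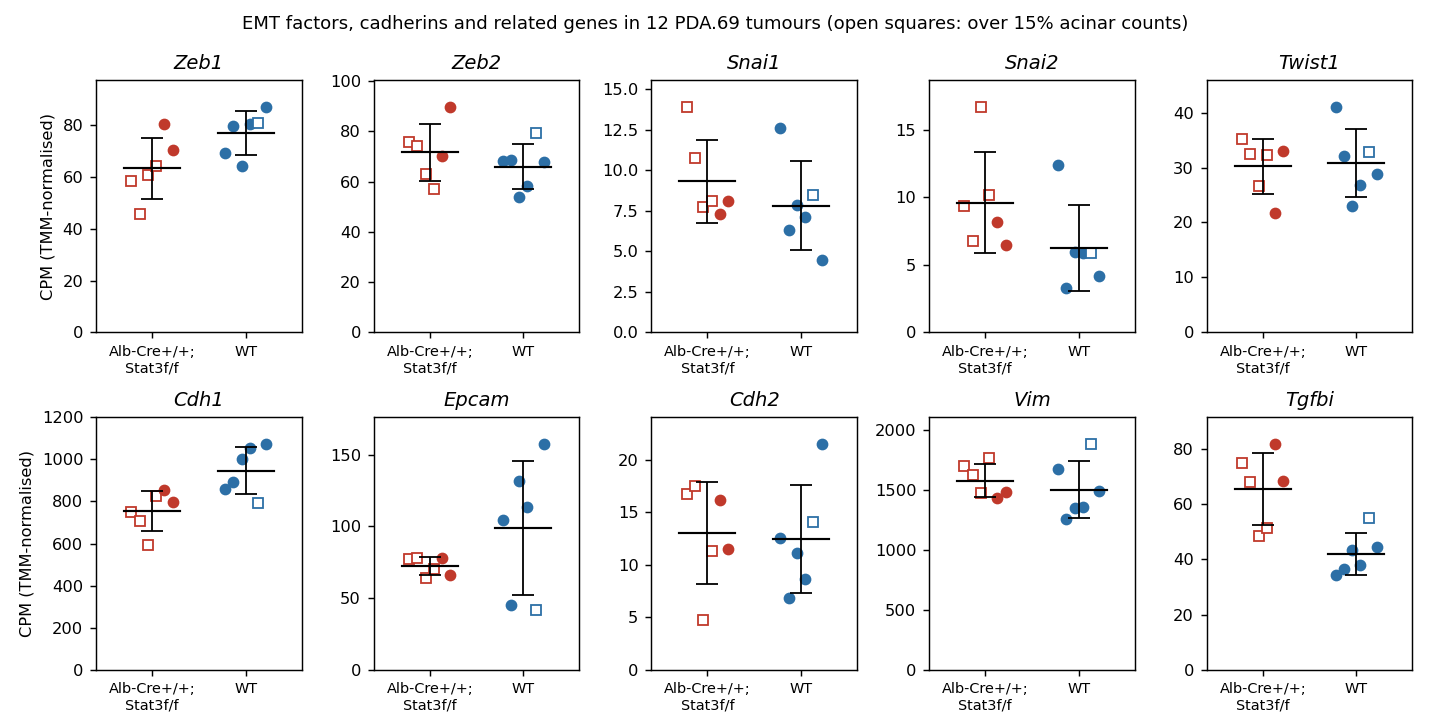
TMM-normalised CPM of the 10 members (vertical axes, each from 0) in Alb-Cre+/+;Stat3f/f and WT tumours (6 each); points are tumours, open squares are the acinar-rich tumours, and bars show the mean ± SD. Tgfbi lies at 48.7 to 81.8 CPM in Alb-Cre+/+;Stat3f/f tumours against 34.2 to 55.1 CPM in WT tumours, and Epcam spans 63.9 to 78.2 CPM in Alb-Cre+/+;Stat3f/f tumours against 41.5 to 157 CPM in WT tumours.

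Over all 12 tumours the levels formed 4 tiers whose ranges did not overlap. Vim stood first at a mean of 1544 CPM, and Cdh1 second at 851 CPM, each above the next gene in all 12 tumours. The middle tier held Epcam (85.6 CPM), Zeb1 (70.2 CPM), Zeb2 (68.8 CPM), Tgfbi (53.8 CPM) and Twist1 (30.5 CPM), and neighbours within it overlapped. Cdh2 (12.7 CPM), Snai1 (8.56 CPM) and Snai2 (7.95 CPM) came last and also overlapped. Snai1, Snai2 and Cdh2 rested on few reads, 22 to 155 counts per library, and both Zeb factors on 195 to 708 counts. E-cadherin and vimentin transcripts were both abundant in every tumour.

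Promoter sequences are shown for the called member, Tgfbi, and for Epcam and Snai1, which hold the E-box that Zeb and Snail proteins bind. They are the 250 bases before the RefSeq transcription start (GRCm38.p6), read 5′ to 3′ on the gene's strand, with each CACCTG or CAGGTG in capitals.
Epcam, chr17:87635729-87635978, plus strand: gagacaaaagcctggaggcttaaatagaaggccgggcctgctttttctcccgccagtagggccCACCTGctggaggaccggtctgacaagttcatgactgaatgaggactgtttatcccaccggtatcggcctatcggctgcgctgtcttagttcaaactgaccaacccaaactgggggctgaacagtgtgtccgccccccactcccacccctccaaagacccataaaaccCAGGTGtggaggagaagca
Snai1, chr2:167537945-167538194, plus strand: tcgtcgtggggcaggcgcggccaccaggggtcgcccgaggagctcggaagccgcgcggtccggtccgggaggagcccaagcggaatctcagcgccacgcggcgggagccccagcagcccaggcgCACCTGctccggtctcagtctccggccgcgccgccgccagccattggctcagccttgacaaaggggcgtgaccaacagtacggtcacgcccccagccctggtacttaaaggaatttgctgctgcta
Tgfbi, chr13:56609336-56609585, plus strand: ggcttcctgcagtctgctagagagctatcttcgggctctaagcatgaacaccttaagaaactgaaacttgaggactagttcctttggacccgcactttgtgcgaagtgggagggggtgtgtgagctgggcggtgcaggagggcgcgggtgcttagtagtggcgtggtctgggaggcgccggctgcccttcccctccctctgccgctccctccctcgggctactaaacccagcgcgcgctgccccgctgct
The Epcam window held 2 such E-boxes, 187 and 19 bases before the start, and the Snai1 window held 1, 126 bases before it. CACCTG was searched on both strands, so that CAGGTG is the same motif. At least 1 copy was in 17.2% of 32851 mouse promoter windows of this length and 2 or more were in 2.06%. RefSeq windows matched 6 of the 10 members, and the windows of Tgfbi, Vim, Twist1 and Zeb2 held none of these letters. A match describes the letters and not a bound site. GENCODE starts Tgfbi upstream of RefSeq, inside the window shown.

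Zeb1 (chr18:5591860-5775467, plus strand, GRCm38) encodes a zinc finger repressor of Cdh1. It ranged from 45.6 to 80.4 CPM with a median of 62.7 CPM in Alb-Cre+/+;Stat3f/f tumours, against 64.2 to 87.2 CPM with a median of 80.0 CPM in WT tumours. The groups overlapped, with 3 Alb-Cre+/+;Stat3f/f tumours below all WT tumours and 3 WT tumours above all Alb-Cre+/+;Stat3f/f tumours. The means were 63.4 ± 11.7 CPM in Alb-Cre+/+;Stat3f/f tumours and 76.9 ± 8.54 CPM in WT tumours (SD, n = 6 each). Their log2 fold change of -0.27 ± 0.12 (SE) did not pass over all genes (edgeR adjusted p = 0.228). The lowest Zeb1 value, 45.6 CPM, was in Alb-Cre+/+;Stat3f/f tumour 2, in which the acinar genes took 32.1% of counts. Without the 5 acinar-rich tumours the Zeb1 log2 fold change was -0.01 ± 0.15, and it was -0.15 ± 0.12 once the acinar marker score was a covariate.

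Zeb2 (chr2:44983632-45117395, minus strand), the paralog of Zeb1 and a factor that macrophages and other stromal cells also use, lay between 57.2 and 89.7 CPM with a median of 72.1 CPM in Alb-Cre+/+;Stat3f/f tumours. In WT tumours it lay between 53.8 and 79.5 CPM with a median of 68.0 CPM. The ranges overlapped in part, with 1 Alb-Cre+/+;Stat3f/f tumour above all WT tumours and 1 WT tumour below all Alb-Cre+/+;Stat3f/f tumours. The log2 fold change was 0.12 ± 0.12 (edgeR adjusted p = 0.624). It was 0.34 ± 0.15 (adjusted p = 0.417) without the acinar-rich tumours, and 0.036 without Alb-Cre+/+;Stat3f/f tumour 6 and 0.068 without WT tumour 3. The antisense gene Zeb2os overlaps Zeb2 and held 23 to 57 counts per library. The sources used here do not give the strand setting of the counting, so reads of the pair cannot be told apart. Zeb1 likewise overlaps Gm10125 on the other strand, which held 4 counts over all 12 libraries. Within a tumour the ratio of Zeb2 to Zeb1 counts was 0.872 to 1.63 in Alb-Cre+/+;Stat3f/f tumours and 0.724 to 0.984 in WT tumours. It was above 1 in Alb-Cre+/+;Stat3f/f tumours 1, 2, 3 and 6 and below 1 in every WT tumour, and it was not tested.

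Snai1 (chr2:167538195-167542814, plus strand) encodes Snail, a repressor of Cdh1 that is induced early in EMT. It ranged from 7.31 to 13.9 CPM with a median of 8.11 CPM in Alb-Cre+/+;Stat3f/f tumours and from 4.44 to 12.6 CPM with a median of 7.48 CPM in WT tumours. The highest tumour of each group was number 1, and the groups overlapped. On the log2 scale the fold change was 0.25 ± 0.25 (edgeR adjusted p = 0.6249), and it was 0.00 ± 0.35 without the acinar-rich tumours and 0.036 ± 0.25 when the acinar score was added. Leaving out tumour 1 gave 0.096 in the case of the Alb-Cre+/+;Stat3f/f tumour and 0.44 in the case of the WT tumour, and 0.12 was found without WT tumour 6.

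Snai2 (chr16:14705852-14709385, plus strand) encodes Slug, a close relative of Snail. It ranged from 6.46 to 16.7 CPM with a median of 8.77 CPM in Alb-Cre+/+;Stat3f/f tumours and from 3.28 to 12.4 CPM with a median of 5.90 CPM in WT tumours. All 6 Alb-Cre+/+;Stat3f/f values lay above 5 of the 6 WT values, and WT tumour 1, at 12.4 CPM, overlapped them. The log2 fold change of 0.60 ± 0.30 was close in size to that of Tgfbi, but its SE was larger than the 0.14 of Tgfbi, and it did not pass (edgeR adjusted p = 0.285). It was 0.38 ± 0.30 with the acinar score as a covariate and 0.20 ± 0.43 without the acinar-rich tumours. Without WT tumour 1 it was 0.92 ± 0.28 (adjusted p = 0.0927), and without Alb-Cre+/+;Stat3f/f tumour 3, the highest of its group, it was 0.38 ± 0.29 (adjusted p = 0.575).

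Twist1 (chr12:33957671-33959829, plus strand) encodes a basic helix-loop-helix factor of mesoderm and EMT. It ranged from 21.8 to 35.2 CPM with a median of 32.4 CPM in Alb-Cre+/+;Stat3f/f tumours and from 22.97 to 41.1 CPM with a median of 30.5 CPM in WT tumours. The log2 fold change was -0.03 ± 0.15 (edgeR adjusted p = 0.945), with a 95% interval from -0.34 to 0.29. It was -0.18 with the acinar score as a covariate and -0.15 without the acinar-rich tumours.

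Cdh1 (chr8:106603351-106670246, plus strand) encodes E-cadherin, the adhesion protein of epithelial junctions. Its levels in Alb-Cre+/+;Stat3f/f tumours 1 to 6 were 749.9, 707, 593, 828, 855 and 797 CPM. In WT tumours 1 to 6 they were 860.4, 894, 1004, 1056, 794 and 1073 CPM. WT tumour 5, the acinar-rich WT tumour, was the single WT value inside the range of the other group, and the other 5 lay above all Alb-Cre+/+;Stat3f/f tumours. The means were 755 ± 95.4 CPM in Alb-Cre+/+;Stat3f/f tumours and 947 ± 114 CPM in WT tumours (SD, n = 6 each). The log2 fold change of -0.33 ± 0.11, with a 95% interval from -0.56 to -0.09, did not pass by edgeR (adjusted p = 0.110) and passed by DESeq2 (adjusted p = 0.0416). It was -0.24 ± 0.14 without the acinar-rich tumours and -0.20 ± 0.11 when the acinar score was added to the fit.

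Epcam (chr17:87635979-87651129, plus strand) encodes the epithelial cell adhesion molecule. Its levels in Alb-Cre+/+;Stat3f/f tumours 1 to 6 were 77.5, 77.9, 63.9, 70.3, 78.2 and 66.2 CPM. In WT tumours 1 to 6 they were 105, 45.1, 132, 113, 41.5 and 157 CPM. The Alb-Cre+/+;Stat3f/f values sat in a narrow band, with the highest 1.22 times the lowest, while 4 WT tumours lay above this band and 2 (numbers 2 and 5) below it, with the highest 3.79 times the lowest. The log2 fold change of -0.45 ± 0.30 had a 95% interval from -1.12 to 0.21 (edgeR adjusted p = 0.449). Adding the acinar score to the fit gave -0.20 ± 0.36, and it was -0.61 ± 0.46 without the acinar-rich tumours and -0.28 ± 0.28 without WT tumour 6. The difference in spread between the groups was not tested. In WT tumour 2 Epcam was low beside a Cdh1 level of 894 CPM, and only 2.35% of its counts were acinar. Epcam per Cdh1 count was 0.0830 to 0.110 in Alb-Cre+/+;Stat3f/f tumours, and in WT tumours it was 0.0505 and 0.0523 in numbers 2 and 5 and 0.107 to 0.147 in the others.

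Cdh2 (chr18:16588877-16809246, minus strand) encodes N-cadherin, which mesenchymal and neural cells use and which replaces E-cadherin in the classical cadherin switch. It ranged from 4.72 to 17.5 CPM with a median of 13.8 CPM in Alb-Cre+/+;Stat3f/f tumours and from 6.84 to 21.5 CPM with a median of 11.8 CPM in WT tumours. The groups overlapped over most of their range, and the log2 fold change was 0.07 ± 0.29 (edgeR adjusted p = 0.928). Its sign turned in 5 of the 12 fits that left out a tumour, and it was 0.22 with the acinar score as a covariate and 0.19 without the acinar-rich tumours. There were 0.00795 to 0.0248 Cdh2 counts per Cdh1 count in Alb-Cre+/+;Stat3f/f tumours and 0.00765 to 0.0200 in WT tumours, so E-cadherin transcripts outnumbered N-cadherin transcripts in every library.

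Vim (chr2:13573927-13582826, plus strand) encodes vimentin, the intermediate filament of mesenchymal cells, also made by fibroblasts, macrophages and endothelial cells. It ranged from 1437 to 1772 CPM with a median of 1553 CPM in Alb-Cre+/+;Stat3f/f tumours and from 1263 to 1885 CPM with a median of 1429 CPM in WT tumours. The Alb-Cre+/+;Stat3f/f range lay inside the WT range. The log2 fold change was 0.07 ± 0.12 (edgeR adjusted p = 0.787), with a 95% interval from -0.17 to 0.31, and it was -0.01 with the acinar score as a covariate.

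Set against Cdh1 in the same library, Vim stood at 2.12 ± 0.299 counts per Cdh1 count in Alb-Cre+/+;Stat3f/f tumours and 1.63 ± 0.438 in WT tumours (SD, n = 6 each). By tumour the ratio was 2.27, 2.30, 2.49, 2.14, 1.68 and 1.86 in Alb-Cre+/+;Stat3f/f tumours 1 to 6. In WT tumours 1 to 6 it was 1.95, 1.41, 1.34, 1.29, 2.37 and 1.39. The 5 acinar-rich tumours were the 5 with the most Vim per Cdh1, at 2.14 or more in each, and the groups overlapped. No test was made of the ratios, and the part of the acinar share in them was not tested.

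**Figure D2:**
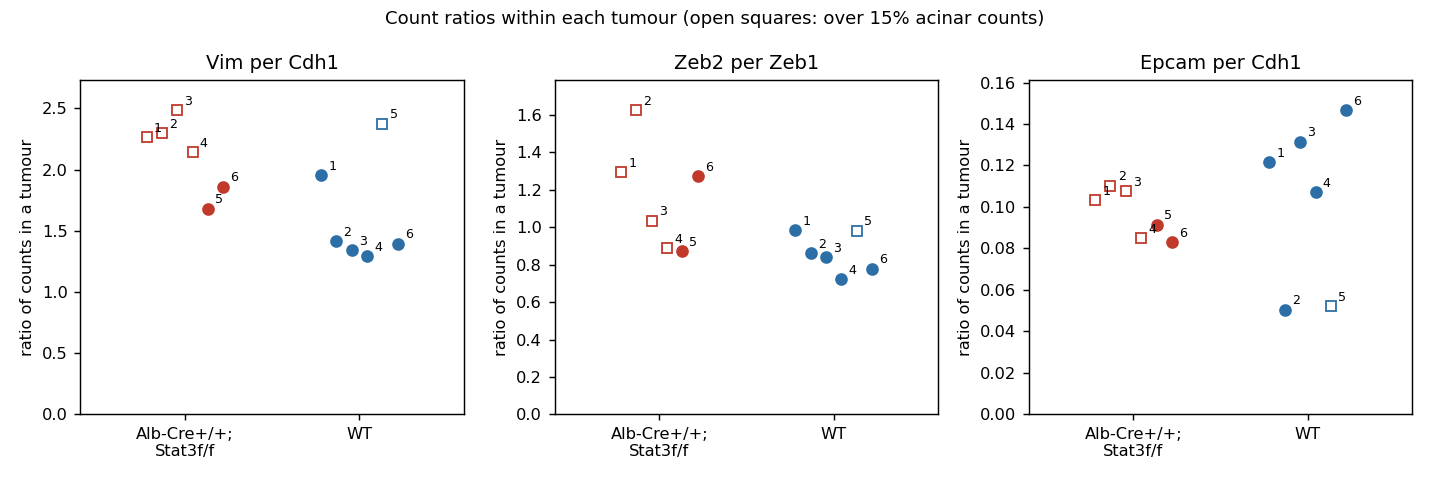
Ratio of counts within each tumour (vertical axes, from 0) for Vim per Cdh1, Zeb2 per Zeb1 and Epcam per Cdh1, in Alb-Cre+/+;Stat3f/f and WT tumours; points are tumours with their number, and open squares are acinar-rich. Vim per Cdh1 is 2.14 or more in each acinar-rich tumour of either host, and Epcam per Cdh1 is lowest in WT tumours 2 and 5.

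Tgfbi (chr13:56609523-56639562, plus strand) encodes a secreted matrix protein that is induced by transforming growth factor beta and made by carcinoma cells, fibroblasts and macrophages. Its levels in Alb-Cre+/+;Stat3f/f tumours 1 to 6 were 74.8, 68.0, 48.7, 51.5, 81.8 and 68.4 CPM. In WT tumours 1 to 6 they were 34.2, 36.7, 43.6, 37.9, 55.1 and 44.6 CPM. In 4 Alb-Cre+/+;Stat3f/f tumours the level was above every WT tumour, and numbers 3 and 4 lay between WT tumours 5 and 6. The means were 65.5 ± 13.01 CPM in Alb-Cre+/+;Stat3f/f tumours and 42.0 ± 7.57 CPM in WT tumours (SD, n = 6 each). Tgfbi was 1.56-fold higher, a log2 fold change of 0.65 ± 0.14 with a 95% interval from 0.35 to 0.95 (edgeR adjusted p = 0.0177). The call was lost without Alb-Cre+/+;Stat3f/f tumour 1 (log2 fold change 0.60, adjusted p = 0.0552) and without WT tumour 4 (0.61, adjusted p = 0.0506). Without the 5 acinar-rich tumours the difference was 0.93 ± 0.15 (edgeR adjusted p = 0.0113). That fit keeps only tumours 5 and 6 of the Alb-Cre+/+;Stat3f/f group and leaves out numbers 3 and 4, the lowest of that group.

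**Figure D3:**
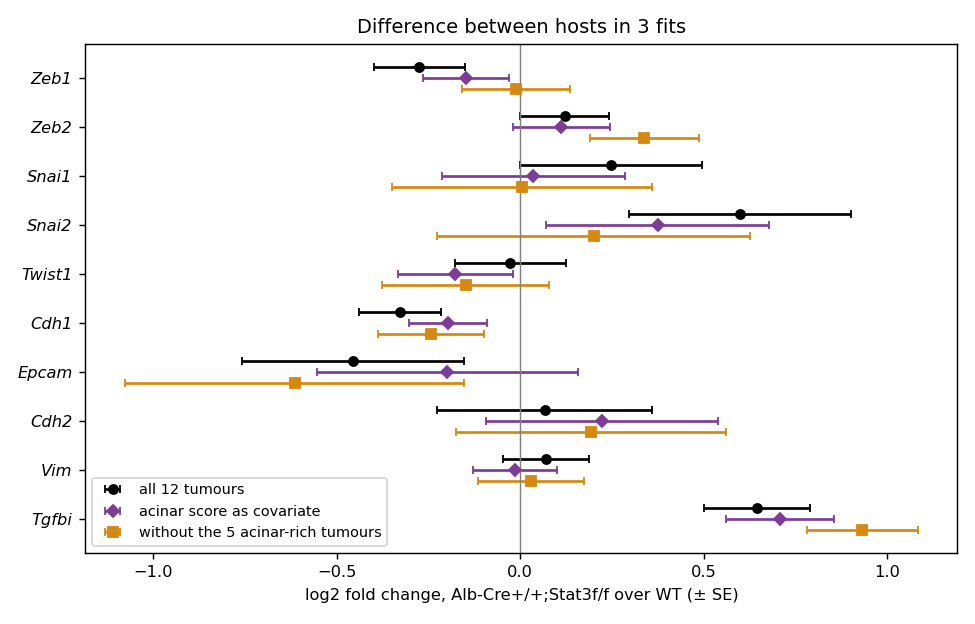
Log2 fold change of the 10 members, Alb-Cre+/+;Stat3f/f over WT (horizontal axis), with bars for ± SE, in the fit of all 12 tumours, with the acinar marker score as a covariate, and without the 5 acinar-rich tumours. The last of these fits keeps only tumours 5 and 6 of the Alb-Cre+/+;Stat3f/f group. Tgfbi keeps its direction at 0.65, 0.71 and 0.93, Zeb1 is at -0.27, -0.15 and -0.01, and Vim is at 0.07, -0.01 and 0.03.

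Macrophage and T cell markers were higher in the same hosts as Tgfbi. Over the 12 tumours Pearson's r of Tgfbi with the macrophage score, the mean log2 CPM of the markers, was 0.758 (permutation p = 0.00626) and Spearman's rho was 0.713 (permutation p = 0.0118), and r was 0.875 without the 2 tumours farthest from the median score. Adjusted over the 80 member and score relations that were computed, the permutation p-values were 0.0651 and 0.105. Within Alb-Cre+/+;Stat3f/f tumours r was 0.257 and within WT tumours it was 0.0732 (exact permutation p = 0.639 and 0.886). With 6 tumours in each host, these values cannot decide whether the relation holds within a host. With the T cell score Tgfbi had a rho of 0.811 (permutation p = 0.00225, adjusted p = 0.0360) and an r of 0.670 (permutation p = 0.0181, adjusted p = 0.143), and r was 0.572 (permutation p = 0.0832) without WT tumours 1 and 6, the farthest from the median score. Within Alb-Cre+/+;Stat3f/f tumours r with the T cell score was 0.475 and within WT tumours it was -0.0265 (exact permutation p = 0.351 and 0.960). The part of macrophage or T cell content in the Tgfbi difference was not tested.

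Of the 80 relations, 4 passed after adjustment for both r and rho and all were with Cdh1, while 6 passed for rho, the others being Tgfbi with the T cell score and Epcam with the ductal carcinoma score. Cdh1 rose with the ductal carcinoma score at r = 0.913 (permutation p = 2e-05, adjusted p = 0.0016) and rho = 0.881 (permutation p = 4e-04, adjusted p = 0.0168), and r was 0.848 without the 2 tumours farthest from the median score. Within Alb-Cre+/+;Stat3f/f tumours r was 0.778 and within WT tumours it was 0.927 (exact permutation p = 0.0792 and 0.00694). Cdh1 was lower where the fibroblast score (r = -0.859, rho = -0.853), the islet score (r = -0.826, rho = -0.867) and the acinar score (r = -0.797, rho = -0.846) were higher. Their adjusted permutation p-values for r were 0.0112, 0.0195 and 0.0342, and for rho 0.0168 in each case. Leaving out the 2 tumours farthest from each median score gave r of -0.811, -0.890 and -0.900, and r was negative within either host for all 3 scores. Islet markers summed to 71.4 to 1277 CPM in Alb-Cre+/+;Stat3f/f tumours and 37.0 to 1021 CPM in WT tumours, with 8 of 8 positive, 0 called by edgeR, 1 by DESeq2 (Sst) and 1 at an unadjusted p under 0.05. Of 14 tested acinar markers all were positive, 0 were called by edgeR or DESeq2 and 4 had an unadjusted p under 0.05. Acinar markers summed to 4769 to 583968 CPM in Alb-Cre+/+;Stat3f/f tumours and 3726 to 184338 CPM in WT tumours. These TMM-scaled sums are not shares of counts. In Alb-Cre+/+;Stat3f/f tumour 3 the acinar genes held 33.7% of counts, and the TMM factor was 0.578. No marker of these lists was at 0 in all tumours, and the part of tissue content in the Cdh1 difference was not tested. Epcam followed the ductal carcinoma score at r = 0.742 (permutation p = 0.00586, adjusted p = 0.0651) and rho = 0.797 (permutation p = 0.00298, adjusted p = 0.0397). For Epcam r was 0.592 (permutation p = 0.0707) without the 2 tumours farthest from the median score, WT tumours 4 and 6. Within Alb-Cre+/+;Stat3f/f tumours r was 0.731 and within WT tumours it was 0.882 (exact permutation p = 0.0708 and 0.00694).

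**Figure D4:**
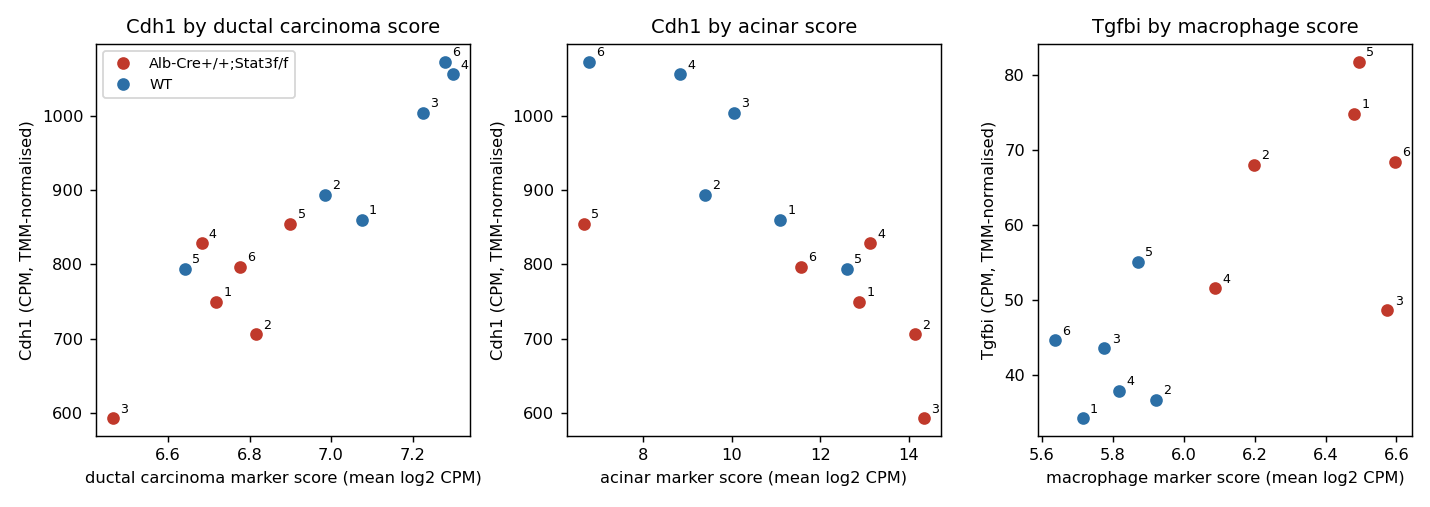
Cdh1 CPM by the ductal carcinoma and acinar marker scores, and Tgfbi CPM by the macrophage score (horizontal axes, mean log2 CPM of the list), with a point for each Alb-Cre+/+;Stat3f/f or WT tumour and its number. Cdh1 rises with the ductal score (r = 0.913) and is lower at higher acinar scores (r = -0.797), and the Tgfbi points of the hosts separate along the macrophage score. Each r was computed on log2 CPM, while the vertical axes show CPM.

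No pair of members passed a test of correlation. Of 45 pairs, 0 passed after adjustment for r or rho, and 4 had an unadjusted permutation p under 0.05 for r. These were Zeb1 with Snai1 (r = -0.65), Snai2 with Cdh1 (r = -0.65), Zeb1 with Cdh1 (r = 0.63) and Cdh1 with Epcam (r = 0.59), each with an adjusted permutation p of 0.374. Their Spearman's rho was -0.60, -0.57, 0.63 and 0.64, each with an adjusted permutation p of 0.224. Without the 2 tumours farthest from the median, r was -0.54, -0.49, 0.49 and 0.49, with permutation p-values from 0.121 to 0.158. For rho the smallest unadjusted permutation p-values were in other pairs. They were Snai1 with Twist1 (rho = 0.727, p = 0.00900), Snai1 with Vim (rho = 0.706, p = 0.0128) and Twist1 with Vim (rho = 0.671, p = 0.0205). Each had an adjusted permutation p of 0.224, and for r their unadjusted permutation p was 0.0557 or more. The sign of r between Zeb1, a known repressor of Cdh1, and Cdh1 was positive in these bulk tumours. Within Alb-Cre+/+;Stat3f/f tumours this r was 0.535 and within WT tumours 0.130 (exact permutation p = 0.275 and 0.781). Both genes were lower where the acinar score was higher (r = -0.757 for Zeb1 and -0.797 for Cdh1). Adjusted over the 80 member and score relations, the permutation p-values were 0.0578 and 0.0342. The part of acinar content in the r of this pair was not tested. Within a host of 6 tumours a lone pair could not pass, since the smallest exact permutation p of 0.00139 adjusts to 0.0625 over 45 pairs. Those with an unadjusted exact permutation p under 0.05 were Cdh2 with Epcam (r = 0.882, p = 0.0139) and Cdh2 with Tgfbi (r = 0.812, p = 0.0264) in Alb-Cre+/+;Stat3f/f tumours and Snai1 with Snai2 (r = 0.867, p = 0.0486) in WT tumours.

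The tested genes most like each member were found by the mean absolute difference of their CPM ranks over the 12 tumours. A gene chosen this way tends to share the member's difference between hosts by selection, so its fold change and adjusted p are no separate result. The nearest to Cdh1 were Agrn (0.500), which encodes the heparan sulfate proteoglycan agrin, Plekha6 (0.667) and Lad1 (0.667), which encodes ladinin, a protein of epithelial basement membranes. Agrn and Lad1 fell, with log2 fold changes of -0.52 (edgeR adjusted p = 0.0283) and -0.66 (adjusted p = 0.00176). The nearest to Epcam were Agr2 (1.00), a secretory protein disulfide isomerase of mucous epithelia that is also in the ductal carcinoma list, Gpa33 (1.17) and Aida (1.17). The nearest to Tgfbi were Eif4e3 (1.00), Milr1 (1.17), an immunoglobulin-like receptor of mast cells, and Prune2 (1.17). These 3 rose, with log2 fold changes of 0.54, 0.74 and 1.70 (adjusted p = 0.0172, 0.0337 and 0.00283). For Snai1 the nearest was Ccl2 (0.667), a monocyte chemokine, for Zeb1 Kmt5b and Sms (0.667 each), for Vim Zfp688 (1.00) and for Snai2 Rgs18 (1.00). The nearest to Twist1 was Gm20199 (1.00) and the nearest to Cdh2 was Cdkn2d (1.17). Zeb2 had no gene closer than 1.5, where 9 genes were tied, Gm9530, Cnrip1 and Slfn4 among them. Ties were also present at 0.667 for Cdh1 (6 genes), at 1.17 for Epcam (3 genes) and at 1.17 for Tgfbi (4 genes). Not all of the tied genes are named.

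The summed level of the other cadherins was lower in every Alb-Cre+/+;Stat3f/f tumour than in any WT tumour, and most of it was Cdh13 and Cdh6. Of 21 listed, 5 passed the filter, 2 had a positive and 3 a negative log2 fold change, 1 fell and 0 rose, and their median was -0.32, beside -0.000773 over all tested genes. Those 21 summed to 336 to 565 CPM in Alb-Cre+/+;Stat3f/f tumours and to 585 to 909 CPM in WT tumours, with all 6 below every WT tumour. Cdh13, a cadherin anchored by a lipid and known from endothelium, ranged from 151 to 368 CPM with a median of 231 CPM in Alb-Cre+/+;Stat3f/f tumours and from 337 to 576 CPM with a median of 432 CPM in WT tumours. Of the Alb-Cre+/+;Stat3f/f tumours, number 5 overlapped the WT range. Its log2 fold change was -0.87 ± 0.21 (edgeR adjusted p = 0.0403). That call was lost in 9 of the 12 fits that left out a tumour, all but those without Alb-Cre+/+;Stat3f/f tumour 4 or 5 or WT tumour 5, in the fit without acinar-rich tumours (-0.53, adjusted p = 0.188) and with no filter on low counts (-0.87, adjusted p = 0.0803). Cdh6, a cadherin of kidney and some carcinomas, averaged 86.3 ± 31.9 CPM in Alb-Cre+/+;Stat3f/f tumours and 154 ± 43.2 CPM in WT tumours (-0.83, edgeR adjusted p = 0.108), was called lower by DESeq2 and was chosen for mention after its values were seen. As a share of the summed cadherin CPM, Cdh1 made up 59.5 to 66.2% in Alb-Cre+/+;Stat3f/f tumours and 53.6 to 59.8% in WT tumours. Endothelial markers, of which 1 of 12 fell (Flt1), summed to 312 to 402 CPM in Alb-Cre+/+;Stat3f/f tumours and 354 to 476 CPM in WT tumours. Ductal carcinoma markers were negative in 9 of 10, with all 6 Alb-Cre+/+;Stat3f/f sums below every WT sum. The part of either list in the Cdh13 difference was not tested.

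**Figure D5:**
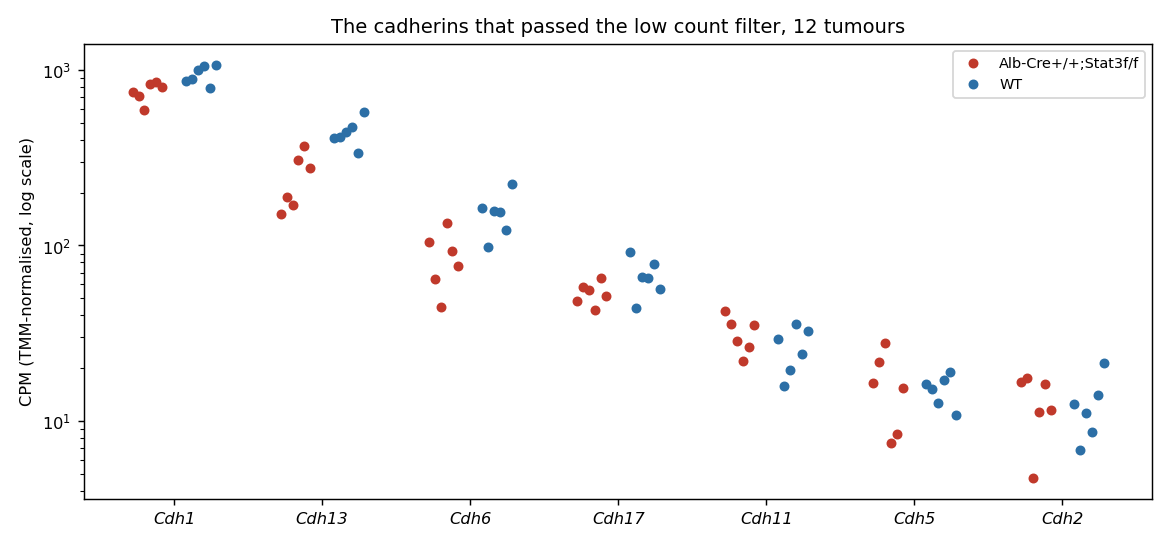
TMM-normalised CPM (vertical log axis) of the 7 cadherins that passed the filter on low counts, ordered by level, in Alb-Cre+/+;Stat3f/f (red) and WT (blue) tumours, with a point per tumour. Cdh13 lies at 151 to 368 CPM in Alb-Cre+/+;Stat3f/f tumours against 337 to 576 CPM in WT tumours, while Cdh2 and Cdh5 overlap over most of their range.

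None of the other EMT transcription factors passed. Of 12 listed, 8 were tested, 2 had a positive and 6 a negative log2 fold change, and 0 were called by edgeR or DESeq2, with 3 at an unadjusted p under 0.05 and a median of -0.17. Prrx1, a homeobox factor of mesenchyme, averaged 43.4 ± 7.83 CPM in Alb-Cre+/+;Stat3f/f tumours and 32.4 ± 8.11 CPM in WT tumours (0.42 ± 0.16, edgeR adjusted p = 0.161). Foxc1, a forkhead factor, averaged 8.21 ± 2.28 CPM in Alb-Cre+/+;Stat3f/f tumours and 11.6 ± 1.81 CPM in WT tumours (-0.49 ± 0.21, adjusted p = 0.193).

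Epithelial-state regulators and junction genes held no call by edgeR in the fit of all 12 tumours. Of 11 regulators, 8 were tested, 4 with a positive and 4 with a negative log2 fold change, 6 at an unadjusted p under 0.05 and a median of 0.03. The ETS factors of epithelia Elf3 (-0.71 ± 0.20, edgeR adjusted p = 0.0638) and Ehf (-0.49 ± 0.15, adjusted p = 0.0850) had the smallest p-values, and DESeq2 called both and Klf5 lower. The others of those 6 were positive, Esrp1 (0.77 ± 0.26, edgeR adjusted p = 0.108), Grhl2 (0.82 ± 0.33) and Grhl1 (1.13 ± 0.54), and DESeq2 called 0 regulators higher. Of 24 junction genes, 23 were tested, 9 positive and 14 negative, 7 at an unadjusted p under 0.05 and a median of -0.06. Ctnnb1, the beta-catenin that binds the E-cadherin tail, averaged 636 ± 125 CPM in Alb-Cre+/+;Stat3f/f tumours and 858 ± 59.6 CPM in WT tumours (-0.43 ± 0.12, adjusted p = 0.0509). Spint1, an inhibitor of epithelial serine proteases, averaged 30.6 ± 11.5 CPM in Alb-Cre+/+;Stat3f/f tumours and 16.8 ± 4.31 CPM in WT tumours (0.86 ± 0.23, adjusted p = 0.0522). Those 2 genes lay just over the adjusted p of 0.05. Ctnnb1 was called with DESeq2's size factors (adjusted p = 0.0495) and with acinar genes and Rn45s left out (0.0483), and both were called with no filter on low counts (0.0454 and 0.0486). DESeq2 called 4 junction genes, 2 higher (Spint1 and Rab25) and 2 lower (Ctnnb1 and Ctnna1).

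Mesenchymal effector genes were all measured and none passed by edgeR or DESeq2. Of 21 tested, 7 had a positive and 14 a negative log2 fold change, 4 had an unadjusted p under 0.05, and the median was -0.15. Fn1, which encodes fibronectin, averaged 762 ± 113 CPM in Alb-Cre+/+;Stat3f/f tumours and 979 ± 241 CPM in WT tumours (-0.36 ± 0.14, edgeR adjusted p = 0.158). Tpm2, a tropomyosin of contractile cells, averaged 49.5 ± 8.52 CPM in Alb-Cre+/+;Stat3f/f tumours and 61.0 ± 6.93 CPM in WT tumours (-0.30 ± 0.12, adjusted p = 0.187). Fibroblast markers, in contrast to that median, were positive in 12 of 12, with 1 called higher (Dcn), and summed to 4828 to 8392.5 CPM in Alb-Cre+/+;Stat3f/f tumours and 3769 to 6828 CPM in WT tumours.

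Of 23 transforming growth factor beta pathway genes, all were tested, 5 with a positive and 18 with a negative log2 fold change, 7 at an unadjusted p under 0.05 and a median of -0.14. Tgfbi, which the pathway is known to induce, was higher beside a list that was mostly lower in sign. That list mixes ligands and receptors with inhibitors of the pathway, Smad7 among them. Neither its signs nor the level of Tgfbi therefore gives a direction of the pathway's activity. A single gene of the list passed, Tgfbr3, the co-receptor betaglycan, which rose. Tgfbr3 ranged from 6.72 to 21.0 CPM with a median of 13.5 CPM in Alb-Cre+/+;Stat3f/f tumours and from 4.26 to 8.50 CPM with a median of 5.95 CPM in WT tumours. Only Alb-Cre+/+;Stat3f/f tumour 6 lay inside the WT range. Its log2 fold change was 1.09 ± 0.27 (edgeR adjusted p = 0.0311), and it was 0.84 (adjusted p = 0.124) with the acinar score as a covariate and 0.64 (adjusted p = 0.508) without the acinar-rich tumours. The call was also lost without Alb-Cre+/+;Stat3f/f tumour 1, 2 or 3 and without WT tumour 2, 3, 4 or 6. Under DESeq2, Ltbp4, Smad3, Smad7 and Pmepa1 were called lower in addition, and edgeR called Smad7 lower with the acinar covariate and with no filter on low counts; these are named after their values were seen.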

How the data were processed

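RNA from 12 tumours, 1 library each, was scraped from FFPE sections and made into QuantSeq 3′ FWD libraries, per the labels' protocols. The deposited values are raw counts, made by the authors for each gene symbol, with STAR and mm10 named in the submitters' processing notes. Versions, counter, annotation, strand setting and filters were not given in the sources used here. Of 24982 entries, 26 held a date number in place of a symbol and were left out (0.0690 to 0.166% of counts); the other 24956 are gene symbols. Positions are from GENCODE M21 (GRCm38), which matched 24472 symbols (98.1%).

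Counts were analysed with edgeR 4.0.16 in R 4.3.3 on the whole table: filterByExpr (minimum count 10, minimum total 15), TMM (factors 0.578 to 1.29), a robust quasi-likelihood fit with host as the sole term, two-sided tests, and Benjamini-Hochberg adjustment over 12856 genes at 0.05. Alternatives were DESeq2 1.42.0 and the settings in the closing section. Correlations used log2 CPM (prior count 2) and 100000 permutations, exact within a host. The fit was tested on simulated data. The labels give no batch or animal identity, and the numbers in the sample descriptions follow the genotype, so an order behind them cannot be told apart from it. No libraries of 1 host were close enough to be duplicates (chi-square per gene of at least 12.6). The p-values of the fits set the difference between hosts against the spread between these tumours. No molecular identifiers are stated, so reads may share a molecule.

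The members and lists were chosen with earlier results of these data known. Named genes were all members, in each list every gene past the threshold or otherwise the 2 smallest p-values, and for each member the 3 genes of most similar rank, of which the text names part.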

Additional observations from a re-analysis of the deposited data

Results flagged for a closer look

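Of 20 groups of 6 tumours (10 members in 2 hosts), 2 held a tumour far from the others, where chance gives about 1 in 20. Both were Snai2. In Alb-Cre+/+;Stat3f/f tumour 3 Snai2 stood at 16.7 CPM, and its gap to the nearest tumour was 0.634 of the group's range, above Dixon's critical value at 95%. In WT tumour 1 it stood at 12.4 CPM, with a gap of 0.703 of the range. Snai2 is the least abundant member, and the acinar share was 33.7% of counts in Alb-Cre+/+;Stat3f/f tumour 3 and 7.47% in WT tumour 1. The value in Alb-Cre+/+;Stat3f/f tumour 3 came from 78 of 8085609 counts at a TMM factor of 0.578, the lowest of the 12 libraries. Tumour 5 of that group held 64 of 6083638 counts at a factor of 1.29. In WT tumour 1 there were 109 of 7594880 counts at a factor of 1.16. The first value therefore depends on the scaling. Whether the acinar share bears on either value was not tested.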

How the results depend on the processing

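Genes called higher and lower (287 and 96) numbered 618 and 288 by DESeq2, 146 and 38 with the acinar covariate, 83 and 14 without the 5 acinar-rich tumours, and 141 to 471 and 37 to 222 with 1 tumour left out. Among members, the number called higher was 0 to 1 with 1 tumour left out, and 1 was called lower by DESeq2 (Cdh1, -0.33). Tgfbi was called in all 8 alternatives that left out no single tumour (0.64 to 0.93), and its log2 fold change ran from 0.56 to 0.74 with 1 tumour left out. Signs turned for Vim with the acinar covariate (-0.014), for Cdh2 with 1 tumour left out (-0.058 to 0.28) and for Twist1 likewise (-0.10 to 0.074); the cause was not tested. The median of epithelial-state regulators was 0.66 without a filter, -0.47 at 10 CPM or more in 6 tumours and -0.034 to 0.31 with 1 tumour left out, and that of the other cadherins was 0.070 without a filter, where the genes tested differ. Relations of members with scores that passed numbered 4 over all tumours and 0 within either host, where a lone relation could not pass, since the smallest exact permutation p of 0.00139 adjusts to 0.111 over 80 relations. With 1 tumour left out, among genes of the regulator and junction lists edgeR called Elf3 without Alb-Cre+/+;Stat3f/f tumour 2, Ehf, Esrp1 and Rab25 without tumour 5 of that group, and Ctnnb1 and Spint1 in 3 each (without Alb-Cre+/+;Stat3f/f tumour 4 or 5 or WT tumour 5). In the main fit Esrp1, Rab25 and Spint1 were positive, and Elf3, Ehf and Ctnnb1 were negative. Snai1 and Snai2 were not tested at the 10 CPM filter, and low counts limit the precision of Snai1, Snai2 and Cdh2. Scaling by DESeq2's size factors, or leaving out acinar genes and Rn45s, changed no call of a member.

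With the replicate number as a block, 145 genes were called higher and 44 lower; 132 and 39 of the main calls remained, and no call of a member changed (Tgfbi 0.64, adjusted p = 0.0385), while Elf3 was called lower (adjusted p = 0.0456). The numbers were not shown to pair tumours: correlations of same-numbered tumours exceeded 0.1 in 2 of 6 pairs, and 1 of 12 tumours correlated best with its own number.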
